A study of Mus musculus with 4 samples.

Results

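Retinal ganglion cells in which Pou4f2 RNA was detected were set against ganglion cells of the same sort in which it was not. Cells were taken as ganglion cells when a barcode held 1 or more unique molecular identifiers (UMIs) of Slc17a6, 3 or more of Rbpms and Slc17a6 together, and at most 1 of Lhx1. The mitochondrial share of its UMIs had to be under 10% and its total 12000 or more. This gate left 753 of 3237 barcodes. Of these, 285 held 2 or more Pou4f2 UMIs (detected, 37.8%), 286 held none (undetected, 37.98%), and the 182 with 1 UMI were in neither class (24.2%). Pou4f2 (ENSMUSG00000031688) lies on the minus strand of chromosome 8, from 78433010 to 78436645 in GRCm38. The classes were chosen on the measured Pou4f2 count, so the difference in Pou4f2 is not a finding, and Pou4f2 was left out of all totals below.

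The study sequenced single cells from 4 retinas of C57BL/6 mice aged 3 months, in 1 group without a treatment. Cells carrying a Brn3b::GFP reporter were sorted for GFP before library preparation with the 10x Chromium 3′ V2 kit, so both classes come from the sorted cells. The labels used here do not say how the reporter was built. The EGFP row of the gene table stood at 0 in all 3237 barcodes, so the reporter cannot be seen in any single cell. The barcodes of the 4 retinas stand in 1 matrix with 1 suffix and no name that ties a barcode to a retina, so the data are 1 pooled sample without replicates, no p-value is given, and every interval is a 95% interval for counting error only.

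Pou4f2 encodes Brn3b, a POU-domain transcription factor that newly born ganglion cells switch on and need for axon growth, survival and the choice among ganglion cell types. It works beside the LIM-homeodomain factor Isl1, and its relatives Pou4f1 (Brn3a) and Pou4f3 (Brn3c) are made in overlapping sets of ganglion cells. In the adult retina each of the 3 factors persists in some ganglion cell types and is low in others, and melanopsin ganglion cells are known to include groups with and without Brn3b.

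The promoters of the genes with the largest ratios below give the sequence context of the contrast. Of the 15 genes with the highest ratio of detected over undetected cells and 13 of the 15 with the lowest, 12 and 10 had a promoter in the RefSeq table for GRCm38.p6. In the 250 bases before the gene start, on both strands, none of the 12 and none of the 10 held ATAATTAAT, a consensus site of BRN3 factors, which 0.307% of 27025 genes and 0.162% of the 6787 ranked genes in the table held. The shorter core ATTAAT stood in Prlr and in Sptssb, against 5.11% of all and 2.77% of ranked genes. TAATTA stood in Spp1, before another of its gene starts than the one shown, against 5.65% and 2.93%. TATAAA, the letters of a TATA box, stood in Prph and Spp1, the genes with the highest ratios, and in none of the 10 with the lowest, against 14.3% of all and 7.13% of ranked genes. Both of those promoters are shown with TATAAA in capitals, on the plus strand, at chr15:99054924-99055173 for Prph and chr5:104434861-104435110 for Spp1. The match starts 31 bases before the gene start in Prph and 211 bases before it in Spp1.
Prph: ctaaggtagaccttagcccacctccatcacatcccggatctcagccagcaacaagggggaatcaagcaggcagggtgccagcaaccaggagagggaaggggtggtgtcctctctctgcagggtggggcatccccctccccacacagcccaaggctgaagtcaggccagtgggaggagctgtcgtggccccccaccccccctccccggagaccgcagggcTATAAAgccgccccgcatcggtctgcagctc
Spp1: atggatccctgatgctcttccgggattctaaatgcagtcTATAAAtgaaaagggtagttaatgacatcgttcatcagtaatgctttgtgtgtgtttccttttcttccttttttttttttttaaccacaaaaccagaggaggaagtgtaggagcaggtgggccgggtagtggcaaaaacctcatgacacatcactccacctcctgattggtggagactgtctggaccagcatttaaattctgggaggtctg
These matches describe letters in a window and are not binding sites. Binding of Pou4f2 was not measured.

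The classes were alike in depth and in the markers of the ganglion cell class. The detected cells had a median of 17272 UMIs and 4742 genes, the undetected cells 17597.5 UMIs and 4738 genes, and the median mitochondrial shares were 4.03% and 3.81%. The share of gate cells with 2 or more Pou4f2 UMIs was 36.3% between 12000 and 15000 UMIs and 41.1% up to 18000. It was 32.5% up to 22000 and 40.9% above that. The Pou4f2 level fell over these depths, at 108, 103, 72.4 and 63.1 CPM. A count of 2 UMIs thus stands for a lower level in a deeper cell. Sncg (gamma-synuclein) stood at 4117 CPM (the share of a class's pooled UMIs, scaled to the same total in both) in detected and 4065 CPM in undetected cells, and every cell of both classes held it. The gate genes Rbpms and Slc17a6 had ratios of 1.03 and 1.06. None of the 21 pan-ganglion-cell genes differed by 1.5-fold or more between the classes, among 8789 ranked genes with 100 or more UMIs. Over all ranked genes 4.57% did, so none of 21 is near that share. Nefl (neurofilament light) stood at 1983 against 2087 CPM, Gap43 (a growth cone protein) at 520 against 582, and Thy1 (a surface glycoprotein) at 1454 against 1779, all lower in detected cells by less than 1.5-fold. Nefl overlaps Nefm on the opposite strand.

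The background of Pou4f2 in cells of another class was low. Horizontal-cell barcodes, gated on 3 or more Lhx1 UMIs and no Slc17a6 UMI, should lack the gene. They had a median of 13504.5 UMIs, and 3 of 114 held 1 Pou4f2 UMI (2.63%, interval 0.546% to 7.50%) and none held 2, which allows a share of up to 2.63% at 3 counts. With every cell thinned to 12000 UMIs, 51.1% of the gate cells held a Pou4f2 UMI against 2.63% of the horizontal-cell barcodes, and 62.0% of gate cells did without thinning. A count of 0 is not absence: of the 368 gate cells without a Pou4f2 UMI at 12000 UMIs, 286 (77.7%) were also without one in their full counts. Just outside the threshold, cells with 1 UMI had a Pou4f2 level of 54.4 CPM, and just inside it, the 103 cells with exactly 2 UMIs had 106 CPM.

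Detected cells were richer in an intermediate filament, an osteopontin, a T-box factor and several adhesion and signalling genes, and undetected cells in Zic1, the neuropeptide gene Cartpt and the LIM factor Isl2. Of the 8789 ranked genes, 270 were 1.5-fold or more higher in detected cells (3.07%) and 132 in undetected cells (1.5%), 4.57% in either direction, with a median log2 ratio of 0.02 over all of them. At 2-fold the numbers were 79 (0.899%) and 26 (0.296%), or 1.19% in either direction. No replicate stands behind these counts, and counting error alone is covered by the intervals.

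Prph, which encodes peripherin, an intermediate filament of neurons with long axons, stood at 129 CPM in detected and 6.77 CPM in undetected cells, a ratio of 19.1 (13.7 to 27.4). Its UMIs were unevenly spread, with a median of 0 per cell in both classes and a maximum of 57 in a detected and 11 in an undetected cell. For shares at 12000 UMIs, here and below, the thinned cells were classed again on their thinned Pou4f2 counts, as 209 detected and 368 undetected cells. These are not the same sets of cells as the classes without thinning. By these classes 23.0% of detected and 7.07% of undetected cells held a Prph UMI, and 6.14% of horizontal-cell barcodes did. The undetected share thus lay within the interval of the background share. In the classes without thinning the shares were 25.6% and 8.74%.

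Spp1, the gene of osteopontin and a marker of alpha ganglion cells, stood at 165 against 8.78 CPM, a ratio of 18.8 (14.05 to 25.7). A single detected cell held 121 Spp1 UMIs, and 12.7% of all Spp1 UMIs came from 1 cell. Spp1 overlaps Gm42793 on its own strand. Both ratios depended on how cells were classed. With classes set on counts thinned to 12000 UMIs, the Prph ratio was 7.50 and the Spp1 ratio 4.93.

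Ctxn3, which encodes a small neuronal membrane protein, had the highest level among the 15 genes, at 427 against 59.3 CPM, a ratio of 7.21 (6.41 to 8.12). Its median was 0 UMIs per cell in both classes, and the 90th percentile was 37 UMIs in detected and 1 UMI in undetected cells. After thinning, 48.3% of detected, 16.8% of undetected and 7.02% of horizontal cells held a UMI, and the ratio was 5.26. Its neighbour on chromosome 18, 1700011I03Rik, stood at 32.9 against 4.76 CPM. The pair lie on the plus strand and do not overlap each other, but both overlap 4930511M06Rik on the opposite strand, and no label states whether reads were counted by strand.

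The other genes of the 15 highest included Man1a, a Golgi mannosidase, with a ratio of 8.08 (4.31 to 16.8), and A230065H16Rik, called Lbhd2 in GENCODE, with 8.30 (4.93 to 14.9). A230065H16Rik had 22.1% of its UMIs in 1 cell, and its ratio was 3.45 with classes set after thinning. The kinase gene Prkcq (5.57), Igfbp5, which binds insulin-like growth factors (4.43), the protocadherin Pcdh19 (3.99), the T-box factor Tbx20 (3.92) and Ramp1, a partner of the calcitonin-type receptors (3.82), followed. Prlr (the prolactin receptor), Nxph1 (a ligand of neurexins), Atp2b4 (a plasma membrane calcium pump) and Vat1l had ratios between 3.76 and 4.11. Among the 15, Pcdh19 and Atp2b4 were spread over many cells, with a UMI in 49.8% and 55.4% of detected cells against 15.04% and 24.5% of undetected cells. At 12000 UMIs these shares were 45.0% and 53.6% against 12.5% and 18.8%, and 0.877% and 5.26% in horizontal cells. Vat1l was held by 89.5% of horizontal-cell barcodes at that depth, so its share among ganglion cells, 21.1% of detected and 10.6% of undetected cells, lay below that class.

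Zic1, a zinc finger transcription factor, had the largest ratio in the opposite direction, with 9 UMIs in all detected and 118 in all undetected cells. It was 13.1-fold higher in undetected cells (6.69 to 29.4), and 6.29% of them held a UMI. It overlaps Zic4 on the opposite strand. Cd24a, a surface glycoprotein, was 4.11-fold higher in undetected cells (2.87 to 6.03), with 20.1% of its UMIs in 1 cell. Both genes marked small groups of cells, since in each the median cell of both classes held 0 UMIs.

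Cartpt, the precursor of the CART peptides, was the most abundant of the 13 described, at 2431 CPM in undetected and 771 CPM in detected cells, a 3.15-fold difference (3.04 to 3.26). Its median was 5 UMIs per cell in undetected and 2 in detected cells, with maxima of 1077 and 751. At 12000 UMIs, 46.5% of horizontal-cell barcodes held a Cartpt UMI, against 75.1% of detected and 85.6% of undetected cells. Most cells of both classes thus held a Cartpt UMI, but with this background a single UMI does not mark a cell that expresses the gene. The 90th percentile was 164 UMIs per cell in undetected and 16 in detected cells, so the upper part of the classes differed most.

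Isl2, a LIM-homeodomain factor of ganglion cells, was widely detected and stood at 90.5 CPM in undetected and 36.9 CPM in detected cells, a 2.45-fold difference (2.08 to 2.90). Without thinning, 60.8% of undetected and 30.2% of detected cells held a UMI. After thinning the shares were 51.4% and 16.7%, with 3.51% in horizontal cells. The GABA receptor subunit gene Gabrg3 had the same form, with a UMI in 44.6% of undetected and 12.4% of detected cells after thinning and in none of 114 horizontal cells, which allows up to 2.63%.

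The rest of these 13 genes were higher in undetected cells by 2.26-fold to 3.69-fold. They were Cd302, Rapsn (rapsyn, which clusters nicotinic receptors), Sptssb (a subunit of serine palmitoyltransferase), Ppp1r17 and Ppp1r1c (inhibitors of protein phosphatases), Ccer2, Hs3st2 (a heparan sulfate sulfotransferase) and Serpinb8. Ccer2 overlaps Nfkbib on the opposite strand, so their reads cannot be fully told apart here. All 15 highest genes and these 13 kept their direction and stayed past 1.5-fold with classes set on cells thinned to 12000 UMIs. In that setting 2.62% of 7372 ranked genes were past 1.5-fold higher in detected cells and 1.9% in undetected cells. Besides these, 4 ranked genes had over 25% of their UMIs in 1 cell and were not placed among the 15, namely Ccl2, Cdkn1c, Hes5 and Opn1sw.

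**Figure D1:**
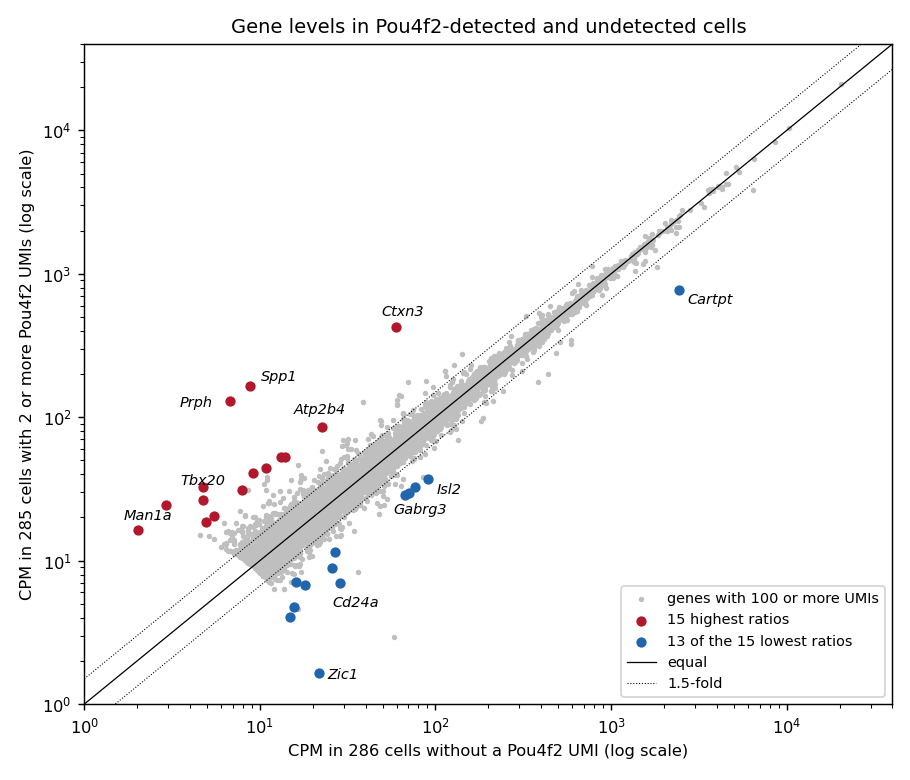
Level of each ranked gene in CPM, on log axes, in the 286 undetected cells (horizontal) and the 285 detected cells (vertical), with the 15 highest ratios in red and 13 of the 15 lowest in blue. Most genes lie between the dotted 1.5-fold lines, Prph, Spp1 and Ctxn3 stand far above them, and Zic1 and Cartpt below.

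Among the factors closest to Pou4f2, both relatives were lower in detected cells. Of 14 ranked Brn3 factors and partners, none was higher in detected cells and 3 were higher in undetected cells: Pou4f1, Pou4f3 and Isl2. These 3 were 21.4% of the ranked members, against 1.5% of all ranked genes. The list's median log2 ratio was -0.04. Pou4f3 stood at 38.4 CPM in detected and 84.7 CPM in undetected cells, a 2.21-fold difference (1.87 to 2.61). Pou4f1 stood at 337 against 515 CPM, a 1.53-fold difference (1.44 to 1.62) with medians of 5 and 9 UMIs per cell. Without cluster 5 (described below) Pou4f1 was 1.33-fold and without cluster 20 1.49-fold higher in undetected cells, under the fold used for a call. Isl1, which acts with Pou4f2 in development, went the other way but under 1.5-fold, at 208 against 146 CPM.

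Few ganglion cells lacked all 3 POU4F genes. A Pou4f1 UMI was found in 86.0% of detected cells (81.4% to 89.8%), 94.0% of cells with 1 Pou4f2 UMI and 94.1% of undetected cells (90.7% to 96.5%), against 7.89% of horizontal-cell barcodes. Pou4f3 was found in 26.7% of detected, 50.5% of 1-UMI and 55.9% of undetected cells, and in none of 114 horizontal-cell barcodes. At 12000 UMIs the Pou4f3 shares were 21.1% of detected and 44.6% of undetected cells. Of the 286 undetected cells, 158 held both relatives, 111 Pou4f1 without Pou4f3, 2 Pou4f3 without Pou4f1, and 15 neither (5.24%, 2.96% to 8.50%). Among the 285 detected cells, 40 held neither relative (14.04%, 10.2% to 18.6%).

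Many of these genes also differed step by step with the number of Pou4f2 UMIs. The gate cells were split into those with 0 (286), 1 (182), 2 (103), 3 to 4 (115) and 5 or more (67) Pou4f2 UMIs. Of the 15 highest genes, 9 were higher at every step, and of the 13 described among the lowest, 8 were lower at every step. The cells with 1 UMI, which neither class contains, lay between the classes for 14 of the 15 highest genes (not Prkcq) and 12 of the 13 lowest (not Ppp1r17). The other 4 groups also entered the ranking of these genes, so the steps among them are a description. The genes were picked as the extremes of 0 against 2 or more UMIs, so a further group tends to lie between. The place of the cells with 1 UMI is thus a description as well.

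Prph stood at 6.77, 18.8, 38.5, 168 and 197 CPM over the 5 groups, so the largest step lay between 2 UMIs and 3 to 4. Ctxn3 stood at 59.3, 78.0, 187, 490 and 670 CPM, with the groups at 0 and 1 UMI close together. Pcdh19 stood at 13.2, 25.7, 34.4, 47.6 and 86.3 CPM. Spp1 did not follow the order, at 8.78, 52.0, 25.2, 258 and 217 CPM. The group with 1 UMI held 174 Spp1 UMIs, most of them in 3 cells of cluster 5 (described below). That cluster held 948 Spp1 UMIs, 793 in detected and 0 in undetected cells, and the rest in those 3 cells.

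Isl2 stood at 90.5, 81.9, 56.0, 36.5 and 10.2 CPM over the same groups. Tusc5, a membrane protein gene on the F-type marker list, stood at 383, 422, 282, 171 and 33.7 CPM, so cells with 0 and 1 UMI were alike and cells with 5 or more were lowest. Pou4f3 (84.7, 86.3, 47.8, 39.8 and 22.7 CPM) and Pou4f1 (515, 514, 391, 345 and 248 CPM) had the same form. For these 3 genes the cells with 1 Pou4f2 UMI were nearer to the undetected than to the detected cells. Sncg stayed between 4045 and 4205 CPM over the 5 groups and Rbpms between 302 and 335 CPM.

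**Figure D2:**
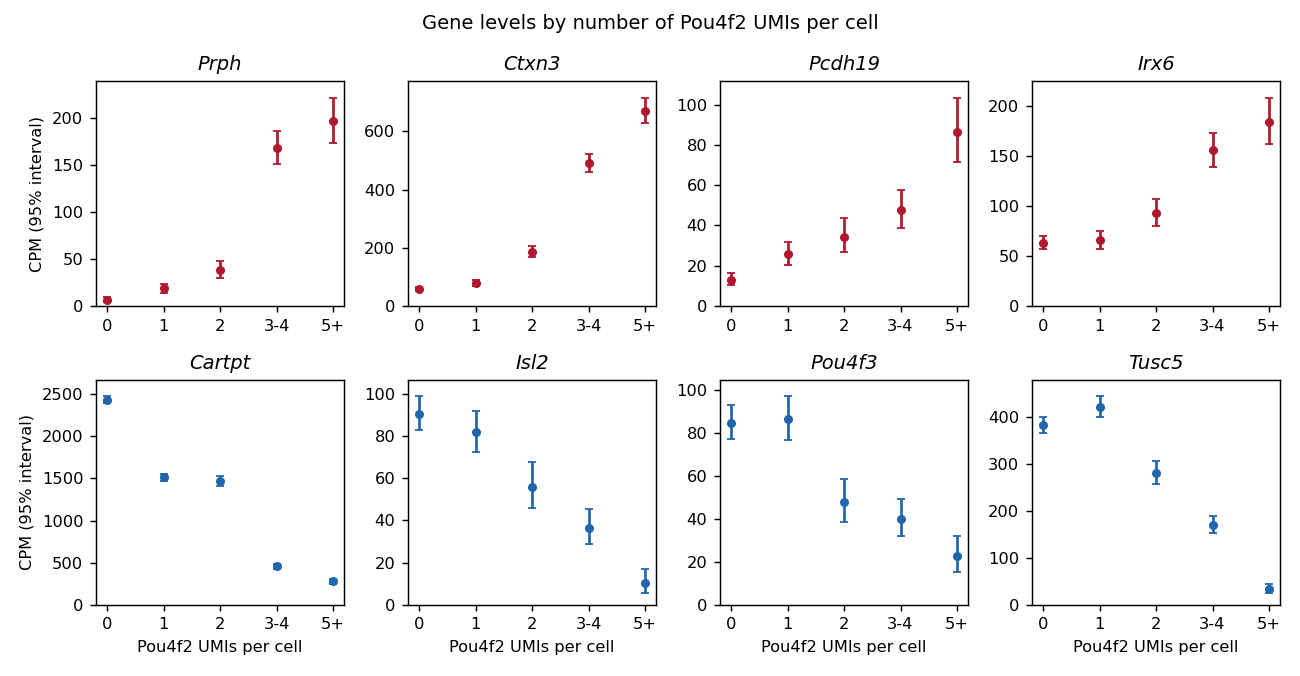
Level in CPM (vertical, linear, from 0) of 8 genes in gate cells with 0, 1, 2, 3 to 4 and 5 or more Pou4f2 UMIs (horizontal), with 95% Poisson intervals. Prph, Ctxn3, Pcdh19 and Irx6 in red increase over the groups, and Cartpt, Isl2, Pou4f3 and Tusc5 in blue are lowest in cells with 5 or more.

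Transcription factors of ganglion cell types divided between the classes. Of 35 ranked, 8 (22.9%) were higher in detected cells (Eomes, Tbx20, Irx3, Irx5, Irx6, Meis2, Prdm8 and Esrrg). In undetected cells 5 (14.3%) were higher (Satb1, Bcl11a, Bcl11b, Zic1 and Tfap2d). Over all ranked genes these shares were 3.07% and 1.5%. The median log2 ratio was 0.20 against 0.02 over all ranked genes. Irx6, an Iroquois factor, stood at 141 against 63.3 CPM, a ratio of 2.22 (1.95 to 2.53). Eomes (Tbr2), a T-box factor of melanopsin and other ganglion cells, stood at 37.4 against 17.9 CPM, a ratio of 2.09 (1.63 to 2.69). Tbr1, its relative, had a ratio of 1.30 (0.905 to 1.87), and Foxp2 one of 1.07 (0.844 to 1.35), both with intervals that include 1. Under the thinned classes Foxp2 was 1.54-fold higher in undetected cells, so its direction depended on the setting.

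Genes known to depend on Pou4f2 in the developing retina showed no common direction here. Of 27 ranked, 4 were higher in detected cells (Eomes, Irx6, Dcx and Nhlh2) and 3 in undetected cells (Isl2, Pou4f1 and Pou4f3). The other 20 passed neither. These shares of 14.8% and 11.1% were above the 3.07% and 1.5% of all ranked genes. The median log2 ratio was 0.02, the same as over all ranked genes. Nhlh2, a helix-loop-helix factor, stood at 15.9 against 6.40 CPM, a ratio of 2.48 (1.66 to 3.79). Dcx (doublecortin) had a ratio of 1.59 (1.14 to 2.24), but 69.3% of horizontal-cell barcodes held it at 12000 UMIs against 17.2% of detected and 14.4% of undetected cells.

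Markers of ganglion cell types were split by type. The counts below stand against 3.07% of all ranked genes higher in detected and 1.5% higher in undetected cells. Of 7 ranked alpha markers, 4 were higher in detected cells (Spp1, Igf1, Chrna4 and Prph) and 1 in undetected cells (Pvalb), with a median log2 ratio of 1.34. Igf1 (insulin-like growth factor 1) stood at 177 against 69.9 CPM, a ratio of 2.53 (2.24 to 2.85), and Chrna4 (a nicotinic receptor subunit) at 22.3 against 7.68 CPM. Pvalb (parvalbumin), also on that list, was 1.85-fold higher in undetected cells, at 594 against 322 CPM. The alpha list therefore did not move as 1 unit.

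Of 8 ranked J and Tbr1 markers, 4 were higher in detected cells and none in undetected cells. These were the adhesion gene Jam2 (2.09), the lipid phosphatase gene Plpp4 (2.89), the protocadherin Pcdh11x (1.77) and Spon1 (1.71). Without cluster 4 of the clusters described below, which gave 75.3% of the Plpp4 UMIs of detected cells, Plpp4 had a ratio of 1.06 (0.544 to 2.05) and was no longer past 1.5-fold. Tbr1 was then 2.14-fold higher in undetected cells, on 24 and 57 UMIs. Of 7 ranked F markers, Coch was higher in detected cells, with a ratio of 3.24 that came to 1.18 under the thinned classes. Tusc5 (2.18-fold), Ppp1r17 and Sptssb were higher in undetected cells. Of 3 ranked direction-selective markers, Cartpt and Calb2 (calretinin) were higher in undetected cells. Calb2 stood at 6436 against 3866 CPM, with 75.4% of horizontal-cell barcodes holding a UMI at 12000 UMIs. Of 7 ranked W3 markers, Sdk2 was higher in detected and Zic1 in undetected cells, and of 4 ranked N markers, Trp53i11 was higher in undetected cells.

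Genes for guidance, secreted factors and receptors had members on both sides. Of 48 ranked guidance and adhesion genes, 8 were higher in detected cells (16.7%) and 5 in undetected cells (10.4%). Over all ranked genes the shares were 3.07% and 1.5%. The median log2 ratio of these 48 was 0.06. Unc5d and Unc5a, receptors for netrins, had ratios of 2.81 (2.199 to 3.61) and 2.29 (1.79 to 2.96), while Nrp2, a semaphorin receptor, was 2.00-fold higher in undetected cells. Unc5a was held by 53.5% of horizontal-cell barcodes at 12000 UMIs, above its share in either class. Of 16 ranked neuropeptides and secreted factors, 5 were higher in detected cells (Cck, Spp1, Igf1, Fgf1 and Nxph1) and Cartpt in undetected cells. These were 31.25% and 6.25% of the ranked members. Cck (cholecystokinin) stood at 142 against 61.6 CPM and Fgf1 at 131 against 60.6 CPM. Cluster 5 gave 61.9% of the Cck UMIs of detected cells, and without it Cck had a ratio of 1.05 (0.893 to 1.23) and Fgf1 one of 1.68.

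Of 34 ranked transmitter receptors, 6 were higher in detected cells (Grin3a, Gabra3, Chrna4, Drd1, Htr1b and Cnr1). In undetected cells 2 were higher (Gria3 and Gabrg3). These were 17.6% and 5.88% of the ranked receptors, against 3.07% and 1.5% of all ranked genes. Grin3a, an NMDA receptor subunit, had a ratio of 2.10, the GABA receptor subunit Gabra3 2.15 and the serotonin receptor Htr1b 2.06. None of 32 ranked voltage-gated channels, 13 immediate-early genes or 10 injury and degeneration genes passed 1.5-fold in either direction, which is near the 4.57% of all ranked genes that did. Of 20 axon cytoskeleton genes Prph passed it, and of 15 ranked calcium-binding proteins Hpcal4 (1.51) was higher in detected and Calb2 and Pvalb in undetected cells.

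Markers of other retinal classes were present at low levels in both classes, and no listed marker was at 0 over the gate cells. The summed rod markers stood at 851 CPM in detected and 773 CPM in undetected cells, with cell medians of 565 and 547 CPM and maxima of 22960 and 18788. Bipolar markers summed to 655 and 527 CPM, amacrine markers to 384 and 392, horizontal markers to 647 and 640, Müller glia markers to 386 and 458, cone markers to 166 and 213, and microglia markers to 167 and 205 CPM. In all 7 lists the sums differed by less than 1.5-fold between the classes. Single markers that passed 1.5-fold were Cnga1 (1 of 8 ranked rod markers), Trpm1 and Prkca (2 of 7 bipolar), Gad2 and Tfap2b (2 of 4 amacrine), Tfap2b again (1 of 6 horizontal), all higher in detected cells, and Opn1sw (1 of 7 cone), higher in undetected cells with 30.1% of its UMIs in 1 cell. Their part in the results was not tested. Scrublet called 11 detected and 9 undetected cells doublets, which stayed in, and leaving them out kept all 28 genes, the 15 highest and the 13 lowest described, on their side of 1.5-fold.

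The classes drew on different groups of ganglion cells. The 753 gate cells were clustered without Pou4f2 into 22 clusters of 16 to 73 cells, which are called by number and leading genes, and whose leading genes are descriptions since they formed the clusters. Pou4f2 ranged from 238 CPM (204 to 276) in cluster 4, led by Plpp4 and with Tbr1, to 8.20 CPM (2.23 to 21.0) in cluster 19, led by Calca and with Pvalb. No 2 neighbours in the order of the 22 levels had separate intervals. Sorted neighbours with intervals this wide mostly overlap, so this cannot tell a gradient from separate groups. Of the 22 clusters, 21 held cells of both classes, and 11 held 5 or more of each.

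At the upper end, 40 of 48 cells were detected in cluster 4 (83.3%) and 40 of 48 in cluster 5, led by Spp1, Ctxn3 and Prph. Cluster 13 (Myo10, Tac1, Eomes) had 21 of 26, and cluster 18 (Cpne5, Meis2) 18 of 22. The Pou4f2 levels of clusters 13, 18 and 5 were 217, 211 and 171 CPM. Among these 4 clusters Pou4f1 was uneven, from 39.4 CPM in cluster 5 to 484 CPM in cluster 4.

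At the lower end, no cell of 21 was detected in cluster 19, which allows a share of up to 16.1% by the exact interval, and 17 were undetected. In cluster 7 (Calb1, Pvalb) 30 of 40 cells were undetected, in cluster 8 (Ppp1r1c, Pvalb) 23 of 36, and in cluster 16, with Opn4, Nmb and Cd24a, 15 of 23. Their Pou4f2 levels were 18.1, 25.7 and 26.4 CPM. Cluster 16 was also low in Pou4f1, at 26.4 CPM, whereas clusters 7 and 8 had 424 and 456 CPM. Pvalb was highest in clusters 19, 8 and 7, at 1664, 1607 and 1485 CPM, and these 3 clusters also had the lowest Pou4f2 levels.

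Cluster 3, led by Foxp2, lay in the middle with 22 detected and 24 undetected cells and 72.5 CPM of Pou4f2. Cluster 2, with Ppp1r17 and Sptssb, had 9 detected and 31 undetected cells, and cluster 1, the largest, with Cartpt, had 10 and 39. Cluster 20 was led by microglia genes (Ccl3, Tyrobp, C1qc) and held 2 detected and 9 undetected of 17 cells. Its Pou4f1 level was the highest of the clusters, at 1072 CPM.

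**Figure D3:**
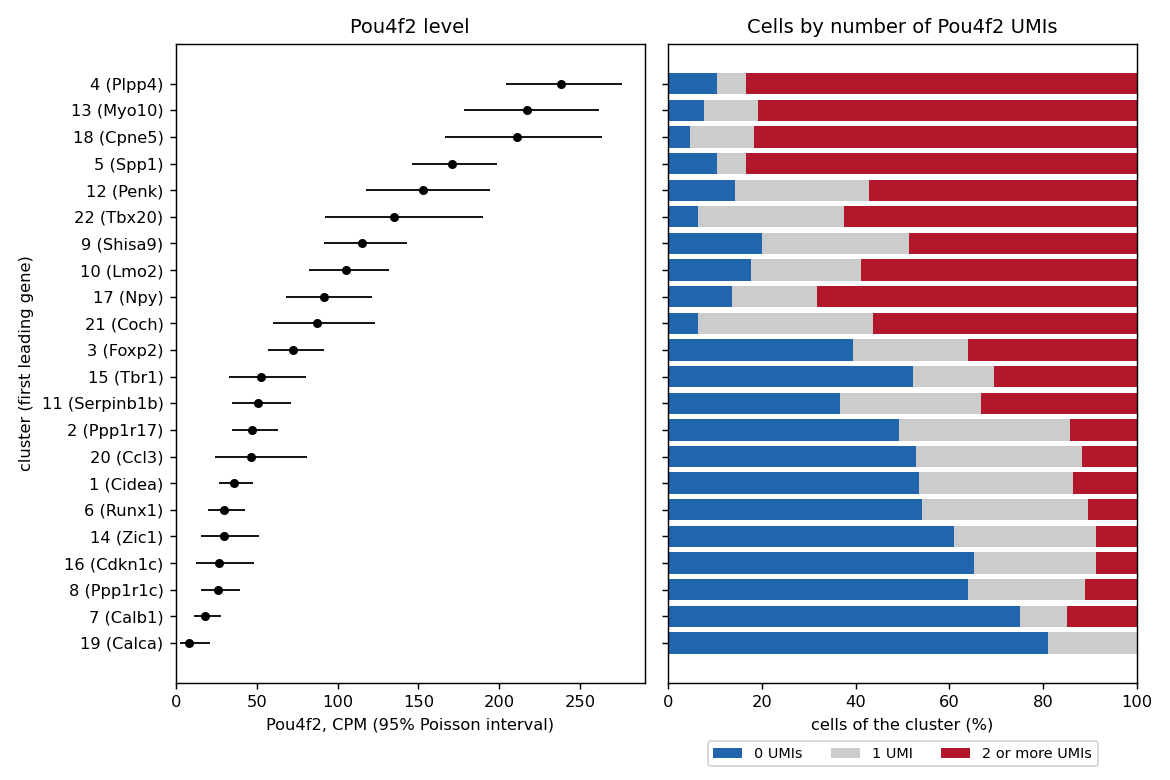
Left, Pou4f2 level in CPM with 95% Poisson intervals for 22 clusters of gate cells made without Pou4f2, ordered by level and labelled by number and first leading gene. Right, percent of each cluster's cells with 0 (blue), 1 (grey) and 2 or more (red) Pou4f2 UMIs: the red share is 83.3% in cluster 4 and 0 in cluster 19.

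Several of the largest ratios rested on 1 cluster. Cluster 5 gave 87.8% of the Spp1 UMIs of detected cells and 69.2% of their Prph UMIs, and cluster 22 (Tbx20, Prph) gave a further 16.1% of Prph. Without cluster 5, the Spp1 ratio was 2.68 (1.89 to 3.84). Of the 110 Spp1 UMIs then left in detected cells, 89 were in 1 cell of cluster 10, and without that cell Spp1 was 1.94-fold higher in undetected cells (1.14 to 3.40), on 21 and 48 UMIs. The higher Spp1 level of detected cells thus rested on cluster 5 and 1 further cell. Without cluster 5, the ratio of Prph was 6.88 (4.84 to 10.0), that of Ctxn3 3.13 (2.70 to 3.64) and that of A230065H16Rik 1.17 (0.547 to 2.50), with 11 of its 16 UMIs in detected cells in 1 cell. Of 67 named genes past 1.5-fold, 9 came under it without cluster 5 (A230065H16Rik, Pou4f1, Esrrg, Eomes, Dcx, Sdk2, Cdh12, Cck and Hpcal4) and 4 without cluster 4 (Plpp4, Sorcs3, Trpm1 and Prkca). Pcdh19 kept a ratio of 3.64 and Prlr had one of 4.41 without cluster 5. Among the genes higher in undetected cells, cluster 14 gave 90.7% of their Zic1 UMIs and cluster 16 gave 95.5% of their Cd24a UMIs. Cartpt drew on 2 clusters, with 52.1% from cluster 1 and 29.97% from cluster 7.

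Within clusters the contrast was smaller, and much smaller for the genes higher in undetected cells. Ratios within clusters, combined by the Mantel-Haenszel rate ratio, left 198 genes past 1.5-fold higher in detected cells (2.25%) and 103 in undetected cells (1.17%). All 15 highest genes kept their direction, 10 stayed past 1.5-fold, and their median log2 ratio went from 2.15 to 1.11. Of the 13 lowest described, 12 kept their direction (not Gabrg3) and 2 stayed past 1.5-fold, and their median log2 ratio went from -1.42 to -0.23. Because the clusters were built from these genes, ratios within clusters are smaller in part by construction.

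Prph had a ratio of 8.43 within clusters, Spp1 7.74, A230065H16Rik 5.93, Man1a 4.96, Prkcq 4.53 and Tbx20 2.54. These values leaned on cluster 5, where 40 detected cells stood against 5 undetected cells. Those 5 cells held 0 UMIs of Prph, Spp1, A230065H16Rik, Prkcq and Tbx20. Within the other clusters Prph had a ratio of 4.68, Man1a 5.48, A230065H16Rik 2.66, Prkcq 2.28, Spp1 2.07 and Tbx20 1.34, and 8 of the 15 highest genes were past 1.5-fold. With cluster 5 kept, the 5 that came under 1.5-fold were 1700011I03Rik, Vat1l, Pcdh19, Nxph1 and Atp2b4, with 1.32 to 1.49. In that same setting Zic1 stayed 4.67-fold and Cd302 2.26-fold higher in undetected cells. The Zic1 value leaned on cluster 14, where 2 detected cells stood against 14 undetected cells. That cluster gave 90.7% of the Zic1 UMIs of undetected cells. Isl2 and Cartpt came to 1.05-fold and 1.12-fold, and Pou4f1 and Pou4f3 both to 1.05-fold. The lower levels of both relatives in detected cells were thus seen between clusters and hardly within them.

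Inside cluster 3, where the classes were nearly equal in number, few genes differed. Of 2511 genes with 50 or more UMIs, 9 were 2-fold or more higher in detected cells (0.358%) and 7 in undetected cells (0.279%). Kcnab3, a potassium channel beta subunit, was 3.04-fold higher in undetected cells (1.59 to 6.18), and Cab39, a partner of the kinase LKB1, 2.47-fold higher in detected cells (1.34 to 4.74). These are extremes of 2511 genes and rest on few UMIs, 13 and 41 for Kcnab3 and 38 and 16 for Cab39 in detected and undetected cells.

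**Figure D4:**
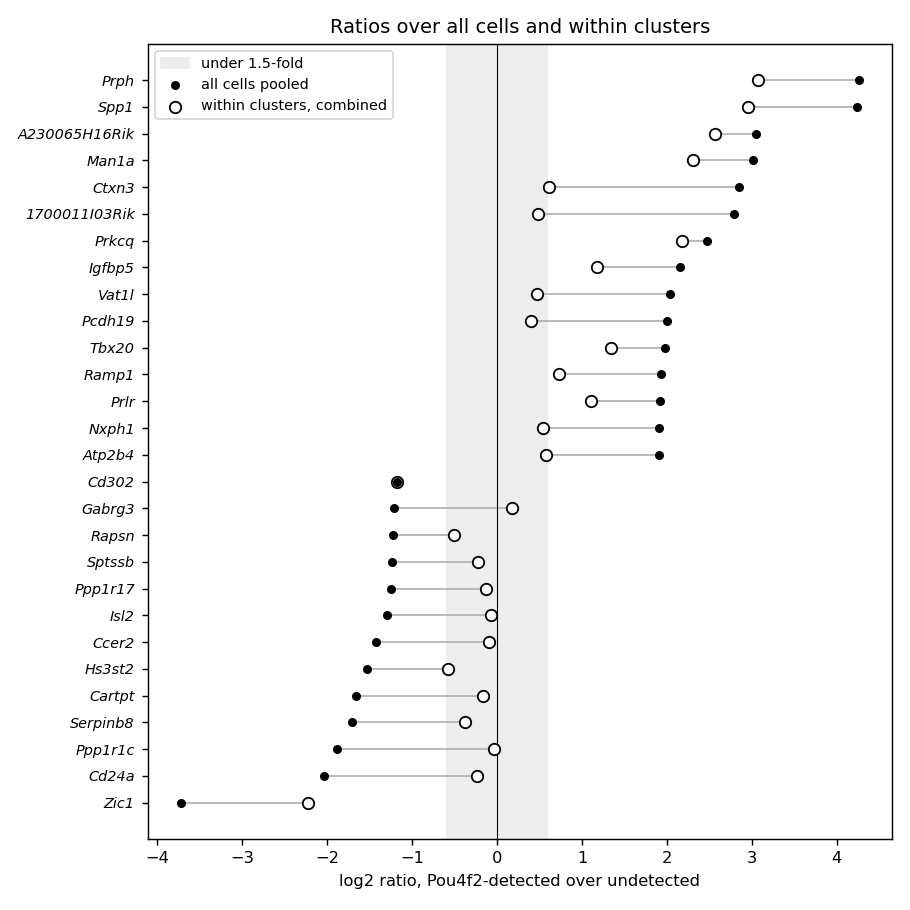
Log2 ratio of detected over undetected cells for the 15 highest and 13 of the 15 lowest genes, over all cells pooled (filled) and within clusters combined (open). The grey band marks differences under 1.5-fold: 10 of the 15 highest stay outside it within clusters, and 2 of the 13 lowest.

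Opn4, the melanopsin gene, had the same number of UMIs in both classes, 356 and 356, a ratio of 1.00 (0.860 to 1.16). The equal sums came from different cells. In detected cells 74.7% of the Opn4 UMIs were in cluster 5, and in undetected cells 95.8% were in cluster 16. Cluster 16 stood at 1344 CPM of Opn4, with a median of 20 UMIs per cell, and cluster 5 at 299 CPM, with a median of 5. Cluster 9 had 22 Opn4 UMIs, all in 1 cell. Without cluster 5, Opn4 was higher in undetected cells (ratio 0.30), and without cluster 16 it was higher in detected cells, with a ratio of 20.01.

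Eomes, which melanopsin cells need, was divided between the same clusters only in part. Cluster 16 gave 80.6% of the Eomes UMIs of undetected cells. In detected cells cluster 5 gave 47.8% and cluster 13 a further 20%. Eomes was highest in cluster 16, at 322 CPM, followed by clusters 5 and 22 at 116 and 105 CPM, and cluster 13 stood at 102 CPM. Its pooled ratio of 2.09 was 1.40 (1.05 to 1.88) without cluster 5 and 9.71 (6.05 to 16.5) without cluster 16. Tbx20 had a ratio of 22.8 (10.8 to 57.6) without cluster 16, and Cd24a turned from 4.11-fold higher in undetected cells to a ratio of 3.69 (1.57 to 10.0) on 27 and 7 UMIs. In 1 detected cell of cluster 9 there were 11 of those 27 UMIs, and without it the ratio was 2.198 (0.856 to 6.32), an interval that includes 1. Without both clusters, Opn4 had a ratio of 7.67 (3.45 to 20.1) on 48 and 7 UMIs, or 4.19 (1.77 to 11.4) without the cell of cluster 9 that held 22 of them, and Eomes one of 10.6 (5.53 to 22.9) on 95 and 10. With all clusters kept, the 10 ranked melanopsin markers had 3 members higher in detected cells (Eomes, Tbx20 and Prkcq) and 1 in undetected cells (Cd24a). These were 30% and 10% of them, against 3.07% and 1.5% of all ranked genes.

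Opn4 also differed in direction between cells with and without Pou4f1. Clusters 5 and 16 were both low in Pou4f1, so this split overlaps with them and is not independent of the cluster values. By cells the overlap was partial: 22 of the 40 detected cells of cluster 5 and 11 of the 15 undetected cells of cluster 16 lacked a Pou4f1 UMI. By Opn4 UMIs it was nearly complete in cells without Pou4f1. There, cluster 5 gave 120 of the 121 UMIs of detected cells. Cluster 16 gave 278 and cluster 5 gave 8 of the 286 UMIs of undetected cells. Among the 245 detected and 269 undetected cells with 1 or more Pou4f1 UMIs, Opn4 had a ratio of 3.70 (2.82 to 4.90), at 49.9 against 13.5 CPM. Among the 40 detected and 17 undetected cells without a Pou4f1 UMI, it was 6.59-fold higher in undetected cells (5.31 to 8.22), at 1043 against 158 CPM. The intervals of these ratios lie on opposite sides of 1, and the difference between them was not tested because the cells form 1 sample.

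Eomes followed Opn4, with a ratio of 4.50 (3.14 to 6.59) in cells with Pou4f1 and a 3.34-fold higher level in undetected cells without it (2.26 to 4.97). Cd24a had 135 UMIs in the 17 undetected cells without Pou4f1 and 0 in the 40 detected cells. Igf1 had a ratio of 2.65 (2.30 to 3.06) in cells with Pou4f1 and 1.02 (0.820 to 1.28) in those without. Spp1 and Prph were higher in detected cells in both strata. Spp1 had a ratio of 14.6 (10.8 to 20.03) with Pou4f1, and 282 UMIs against 1 UMI without it. Cluster 5 gave 280 of those 282 UMIs and 793 of the 903 Spp1 UMIs of all detected cells. The Spp1 values of the strata are therefore not independent of that cluster. Prph had ratios of 25.4 (17.0 to 39.5) and 3.98 (2.203 to 7.89).

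Pvalb and Nefl also differed between the strata. With Pou4f1, Pvalb was 1.82-fold higher in undetected cells, and without Pou4f1 its ratio was 4.03 (2.29 to 7.75) in favour of detected cells. Nefl had ratios of 0.94 (0.917 to 0.969) and 1.92 (1.68 to 2.22). Of the 15 highest genes, all 15 stayed past 1.5-fold in their direction in cells with Pou4f1. In cells without it, 12 of the 14 that had a ratio kept their direction (not Prkcq and Pcdh19) and 9 were past 1.5-fold. Of the 13 lowest described, 12 stayed past 1.5-fold in cells with Pou4f1 (not Cd24a), and in those without it 6 of the 9 that had a ratio kept their direction, all 6 past 1.5-fold. The stratum without Pou4f1 holds few cells, and 1 cell can weigh heavily in it.

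**Figure D5:**
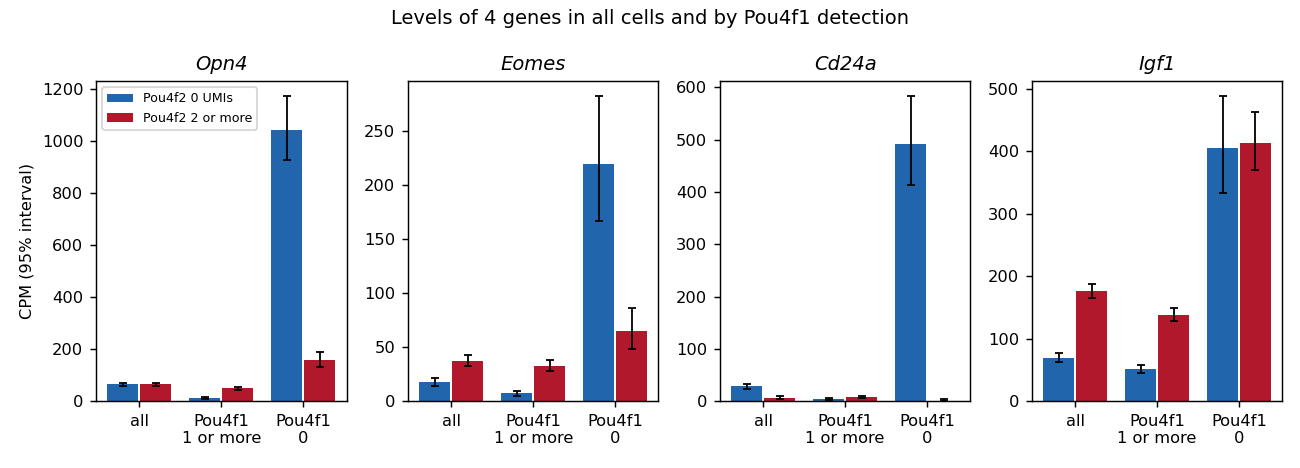
Level in CPM (bars from 0, with 95% Poisson intervals, and the limit of 3 counts where no UMI was found) of Opn4, Eomes, Cd24a and Igf1 in undetected (blue) and detected (red) cells, for all cells and for cells with 1 or more or 0 Pou4f1 UMIs. Opn4 is equal over all cells, higher in detected cells with Pou4f1 (49.9 against 13.5 CPM) and higher in undetected cells without it (1043 against 158 CPM).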

How the data were processed

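Single-cell RNA sequencing of GFP-sorted retinal cells gave 1 matrix of 3237 barcodes and 27999 genes for the 4 retinas. The values are counts: per the deposited table they are whole numbers of UMIs per gene and barcode, without normalization, and per the submitters' processing notes Cell Ranger, Seurat 2.2 and the build mm10 were used. How barcodes were called as cells and with which settings is not given in the sources used here, and neither is a Cell Ranger version. The members and the gene lists were chosen with earlier results of these data known.

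UMIs were summed over each class without Pou4f2 and scaled to CPM, and ratios carry exact conditional 95% intervals (levels exact Poisson, shares exact Clopper-Pearson), for counting error only. The matrix was treated as 1 sample, so no test was made. Total depth was 31361961 UMIs, with a median of 7674 per barcode and 17429 per gate cell. A gene was ranked with 100 or more UMIs over both classes and called past 1.5-fold. The named genes were the 15 highest and 15 lowest ratios (no single cell holding over 25%, mitochondrial and ribosomal protein genes left out), list members past 1.5-fold (at most 6 per list, 26 lists) and 12 fixed genes. A few genes, 2 of the 15 lowest among them, are not reported here and were taken out of the named genes and lists. For equal depth, cells were thinned without replacement to 12000 UMIs (seed 0) and classed again.

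Gate cells were clustered with Leiden at resolution 1.0 (2000 variable genes, 30 components, 15 neighbours) without Pou4f2, mitochondrial and ribosomal protein genes. Scrublet called 63 of 2699 scored barcodes doublets. They were kept and left out as an alternative. Loci are from GENCODE (GRCm38) and promoters from RefSeq. Ratios and thinning were tested on simulated data. Alternatives were thinning, other Pou4f2 thresholds, scaling, weighting, count minimums, gate depths, a mitochondrial maximum, doublets, the top cell left out and ratios within clusters. The 2-fold call, totals without mitochondrial and ribosomal genes, and leaving out clusters or, with them, a gene's top cell were added after seeing the data. The software was scanpy 1.11.5, leidenalg 0.10.2, scipy 1.17.1 and matplotlib 3.10.9 under Python 3.11.15.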

Additional observations from a re-analysis of the deposited data

Results flagged for a closer look

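Pou4f2 was also found in barcodes outside the gate. Of the 195 barcodes that missed it for depth alone, 40 held 2 or more Pou4f2 UMIs (20.5%, interval 15.1% to 26.9%), above the 1.54% that a count of 0 allows. The contrast was looked at in these shallower cells, which the gate did not use, with 40 detected and 102 undetected barcodes. They come from the same pooled sample. Of the 15 highest genes, 14 had 10 or more UMIs there and 13 of these had the same direction (not A230065H16Rik). Of the 13 lowest described, 9 had 10 or more UMIs and 6 had the same direction (not Zic1, Ppp1r1c and Gabrg3). Prph had a ratio of 14.5 (6.85 to 35.3), Ctxn3 4.34 (3.36 to 5.63) and Atp2b4 4.20 (2.46 to 7.37), while Pcdh19 had 1.95 (1.15 to 3.30), against 3.99 in the gate cells. Cartpt was 4.31-fold, Tusc5 3.41-fold, Isl2 3.11-fold Calb2 2.88-fold and Pvalb 1.69-fold higher in undetected barcodes. Pou4f3 had a ratio of 0.72 (0.395 to 1.24), an interval that includes 1, and Gabrg3 one of 1.01 (0.506 to 1.91). Spp1 had 1 UMI in all detected and 0 in all undetected barcodes of this depth. The median depths were 11025 and 9173 UMIs.

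Of the 2062 barcodes without a Slc17a6 UMI, 9 held 2 or more Pou4f2 UMIs (0.436%, interval 0.200% to 0.827%). That share is under the 2.63% that the 114 horizontal-cell barcodes allow, so it is not above that background. The median depths of these 2 sets were 4773.5 and 13504.5 UMIs. Rbpms was found in 8 of these 9 barcodes, Pou4f1 in 6 and Sncg in 9, at a median depth of 10194 UMIs.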

How the results depend on the processing

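The 15 highest and the 13 lowest genes described kept their direction under the processing settings, from thinning to doublets. Leaving out clusters or single cells turned some, with log2 ratios of 1.88 for Cd24a without cluster 16, 1.75 without clusters 5 and 16 and 1.14 without cluster 16 and its top cell, and of -0.95 for Spp1 and -1.44 for A230065H16Rik without cluster 5 and their top cell. The splits by Pou4f1 and the shallow barcodes turned others, named with those results. The number of genes past 1.5-fold moved most with the count minimum: from 270 higher in detected and 132 in undetected cells to 457 and 258 at 50 UMIs, 76 and 49 at 300 UMIs, and 1615 and 1377 with 1 or more UMIs in each class. The 2-fold call gave 79 and 26. With 1 or more Pou4f2 UMIs against 0, 73 genes were higher in undetected cells. Tfap2b came to -0.15 with thinned cells and Trpm1 to -0.22 with a mitochondrial share under 5%, both log2 ratios. Within clusters these log2 ratios changed sign: Gabrg3 0.17, Tfap2d 0.0935, Nhlh2 -0.55, Dcx -0.26, Chrna4 -0.19, Pvalb 0.0172, Coch -0.0288, Tusc5 0.0080, Spon1 -0.0578, Unc5d -0.0542 and Hpcal4 -0.19. Within clusters other than cluster 5, the log2 ratios that had changed sign were Gabrg3 0.14, Tfap2d 0.0935, Nhlh2 -0.11, Dcx -0.28, Chrna4 -0.26, Coch -0.11, Tusc5 0.0070, Spon1 -0.0628, Sdk2 -0.35, Cck -0.28, Grin3a -0.24 and Hpcal4 -0.21. The cause was not tested. No paired analysis was possible because no barcode is tied to a retina. Depth limits genes with few UMIs, and absence of Pou4f2 in a cell cannot be shown.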
